A study of Mus musculus with 8 samples.

Results

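Chemokine ligands were examined in lung RNA of 4 wild-type mice and 4 mice that over-express Fra-2 (Fra-2 TG), all of the C57BL/6 background strain and 8 weeks old, with 1 single-colour Agilent array per mouse. A gene was taken as a chemokine ligand where its platform symbol was Ccl or Cxcl with a number, or Xcl1, Cx3cl1, Pf4 or Ppbp, with Cxcl12 left out. This gave 36 ligands of the 20863 genes named on the array, read by 54 spots, and the brightest spot over all 8 arrays stood for each gene. The labels name no treatment. The labels name no promoter for the transgene and no cell type that expresses it. Levels are log2 normalised intensities, and every difference is transgenic minus wild type on that scale, with the standard error (SE) of the limma fit.

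Chemokines are small secreted proteins that guide leukocytes through receptors on the cell surface. CC ligands such as Ccl2 and Ccl11 mainly call monocytes, eosinophils and lymphocytes, CXC ligands such as Cxcl1 call neutrophils, and Cxcl9 to Cxcl11 call activated T and natural killer (NK) cells. Some are induced by injury or cytokines, while others, such as Ccl19 and Cxcl13, are made at a steady level to place lymphocytes in tissue. In lung they come from epithelium, endothelium, macrophages and lymphocytes, and in whole-lung RNA fewer cells of a type and less RNA per cell cannot be told apart.

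The surfactant genes Sftpc, Sftpb and Sftpa1 and the club cell gene Scgb1a1 lay near the top of the scale in all 8 mice, and Ager and Cldn18 of alveolar epithelium were at 8.42 or more. Fosl2, which encodes Fra-2, was read by a bright spot with group means of 10.61 in wild type and 9.86 in transgenic mice and by a dim spot with 4.52 and 6.97, so the spots differ in direction. On the dim spot every transgenic mouse (6.35 to 7.85) lay above every wild-type mouse (3.44 to 5.58), as the labels have it, while the bright spot overlapped. Over all genes, each array's mean correlation with its own group was 0.976 for wild-type mouse 4 and 0.979 for transgenic mouse 4, against 0.983 to 0.985 for the other 6. Transgenic mouse 4 stands apart in many ligands, so results are given with it and without it.

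No ligand passed the test over all genes (limma, Benjamini-Hochberg adjusted p under 0.05), where 0.216% of all genes did (0.125% higher and 0.0911% lower). Positive differences were seen in 22 of 36, or 61.1% against 52.4% of all genes. At an unadjusted p under 0.05 there were 9 of 36 ligands, 4 higher and 5 lower in transgenic lung, or 25% of the ligands against 9.15% of all genes (5.33% higher and 3.82% lower). The groups did not overlap in 9 ligands, or 25% against 6.53% of all genes (3.99% higher and 2.54% lower). Ccl9, Ccl8, Ccl11 and Cxcl17 lay higher in every transgenic mouse than in any wild-type mouse, and Ccl5, Ccl4, Ppbp and Cxcl16 lay lower. The other of the 9 was Ccl28, which was under the floor for dim signals in all 8 mice. With only genes above the floor, 8 ligands did not overlap and 8 had an unadjusted p under 0.05 (3 higher and 5 lower). The matching shares of all genes above the floor are not given. The median difference over the 36 ligands was 0.21, against 0.01 over all genes. It was 0.0199 with only genes above the floor. Without transgenic mouse 4 it was 0.0664, against 0.0145 over all genes. Means of 7 ligands (Ccl1, Ccl20, Ccl22, Ccl26, Ccl28, Cxcl2 and Cxcl3) lay under 4.74, the median of all spots, which served as a floor for dim signals, and for these no fold is given. Of these 7 only Ccl26 had a negative difference.

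**Figure D1:**
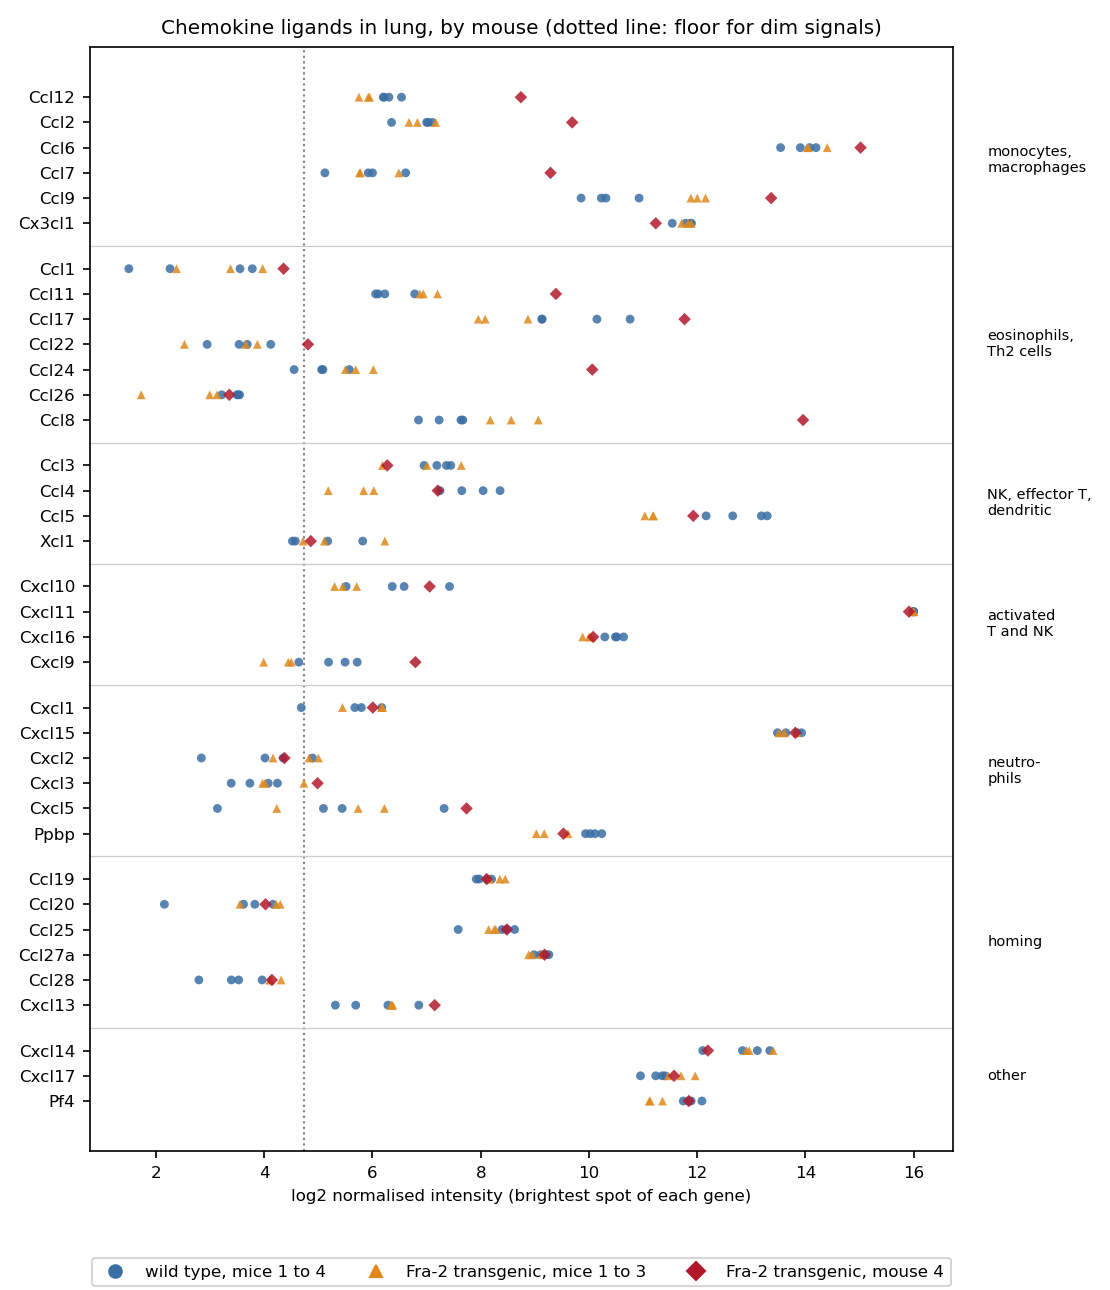
Log2 normalised intensity of the 36 ligands (rows, by the cells they recruit), 1 point per mouse: circles for wild type, triangles for transgenic mice 1 to 3 and diamonds for transgenic mouse 4. The diamond stands to the right of all other points for Ccl2, Ccl7, Ccl11, Ccl12, Ccl8 and Ccl24, while Ccl5 and Ppbp lie to the left in all 4 transgenic mice. Spots of different genes differ in efficiency, so levels are compared along a row and not between rows.

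Ccl9, a ligand of the receptor Ccr1 that attracts monocytes and dendritic cells, had the smallest p of the 36. It stood at 9.86, 10.93, 10.31 and 10.23 in wild-type mice 1 to 4 and at 12.16, 11.88, 12.003 and 13.37 in transgenic mice 1 to 4. No transgenic mouse came down to the wild-type range, and mouse 4 was the highest. The means were 10.33 ± 0.44 and 12.35 ± 0.69 (SD, n = 4 each), 4.06-fold higher (difference 2.02, SE 0.36, limma adjusted p = 0.114). Without transgenic mouse 4 the difference was 1.68 (limma adjusted p = 0.0798). Ccl9 passed the threshold with an offset of 16 or 32 added before the log2 (adjusted p = 0.0403 and 0.0428) and with a variance that follows the level (0.0317).

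Promoter sequences of 25 of the 36 ligands were matched in RefSeq (GRCm38.p6), and the 250 bases before the start are considered here. They are shown for Ccl9 and Ppbp, whose groups did not overlap and whose promoters hold a match to the AP-1 motif, the site of the protein family that includes Fra-2. Ccl11, Cxcl17, Ccl5, Ccl4 and Cxcl16, whose groups also did not overlap, had no matched promoter and were not searched. Nor were Ccl2, Ccl7, Ccl24, Ccl26, Cxcl5 and Cxcl11. Cxcl10 is shown because its promoter holds matches to 3 of the motifs searched, and Ccl8 and Ccl12 because they are next to each other in the genome and stood high in transgenic mouse 4. Capitals mark matches, and all are written 5′ to 3′ on the strand of the gene: Ccl9 at chr11:83578637-83578886, minus strand, Ppbp at chr5:90768268-90768517, plus strand, Cxcl10 at chr5:92348890-92349139, minus strand, Ccl8 at chr11:82114935-82115184, plus strand, and Ccl12 at chr11:82101595-82101844, plus strand.
Ccl9: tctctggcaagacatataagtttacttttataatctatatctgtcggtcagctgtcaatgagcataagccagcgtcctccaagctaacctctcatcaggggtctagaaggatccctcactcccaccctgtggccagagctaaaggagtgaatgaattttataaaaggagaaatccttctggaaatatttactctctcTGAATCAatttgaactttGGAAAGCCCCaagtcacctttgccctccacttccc
Ppbp: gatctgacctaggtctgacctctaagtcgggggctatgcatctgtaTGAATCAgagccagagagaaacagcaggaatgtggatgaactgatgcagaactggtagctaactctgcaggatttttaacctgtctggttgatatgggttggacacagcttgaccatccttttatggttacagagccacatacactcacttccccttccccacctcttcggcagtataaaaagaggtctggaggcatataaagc
Cxcl10: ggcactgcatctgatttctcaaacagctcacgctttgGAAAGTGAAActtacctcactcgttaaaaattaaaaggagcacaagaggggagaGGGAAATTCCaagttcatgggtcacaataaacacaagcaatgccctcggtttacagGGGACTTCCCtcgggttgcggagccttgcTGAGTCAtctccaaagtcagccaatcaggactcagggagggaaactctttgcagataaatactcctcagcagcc
Ccl8: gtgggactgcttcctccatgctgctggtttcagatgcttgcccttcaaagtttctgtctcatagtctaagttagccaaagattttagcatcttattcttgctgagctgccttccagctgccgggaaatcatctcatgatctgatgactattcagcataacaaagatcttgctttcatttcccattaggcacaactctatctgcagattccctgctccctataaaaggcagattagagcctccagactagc
Ccl12: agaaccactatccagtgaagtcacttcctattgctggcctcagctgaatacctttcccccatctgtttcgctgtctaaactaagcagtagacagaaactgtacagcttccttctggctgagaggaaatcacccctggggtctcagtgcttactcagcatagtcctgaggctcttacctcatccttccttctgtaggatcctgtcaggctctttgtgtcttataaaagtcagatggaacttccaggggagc

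The motifs searched on both strands were AP-1 (TGANTCA), the NF-kB consensus, the interferon response element (GAAA, any 2 bases, GAAA) and STAT6 (TTC, any 4 bases, GAA). AP-1 was matched by 4 of the 28 ligand promoters (Ccl9, Ppbp, Cxcl10 and 1 of the 3 of Ccl27a), 14.3%, against 6.75% of all 32851 promoters of that length. In Ccl9 the match TGAATCA lay at -53 to -47 from the start and the NF-kB match GGAAAGCCCC at -35 to -26, and in Ppbp TGAATCA lay at -204 to -198. Of the 4 ligands with an AP-1 match, Ccl9 had a positive difference (2.02), and Ppbp (-0.74), Cxcl10 (-0.59) and Ccl27a (-0.11) had negative ones. The part of the motif in these levels was not tested. NF-kB was matched by 6 of 28 promoters (21.4% against 3.9%), those of Ccl9, Ccl20, Cxcl1, Cxcl2, Cxcl3 and Cxcl10. Cxcl1, Cxcl2 and Cxcl3 share the letters GGGAATTTCC, whose overlapping match on the other strand starts 1 base later. The interferon response element was found in 3 (10.7% against 2.98%: Ccl19, Cxcl10 and Cxcl14) and STAT6 in 1 (3.57% against 5.85%: Ccl17). Ccl8 and Ccl12 had no match in this window. A match is a description of letters and shows no binding.

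Ccl6, encoded close to Ccl9 and also a ligand that signals through Ccr1, had wild-type levels of 13.91, 14.20, 14.08 and 13.54 and transgenic levels of 14.41, 14.05, 14.04 and 15.02. The groups overlapped, and transgenic mouse 4 was the highest of all 8 (difference 0.45, SE 0.25, limma adjusted p = 0.642). Ccl2, Ccl7 and Ccl12, the ligands of Ccr2 that draw monocytes out of the blood, were highest by far in transgenic mouse 4. In transgenic mice 1 to 3, Ccl2 and Ccl7 overlapped with wild type and Ccl12 lay slightly below it. Ccl2 ranged from 6.35 to 7.17 in the other 7 mice and reached 9.69 in transgenic mouse 4. Ccl7 ranged from 5.12 to 6.61 and reached 9.29. Ccl12 was at 6.54, 6.21, 6.20 and 6.30 in wild-type mice and at 5.75, 5.92, 5.95 and 8.74 in transgenic mice.

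For these 3 genes the group difference depended on that mouse. It was 0.72 (SE 0.63) for Ccl2, 0.91 (SE 0.77) for Ccl7 and 0.28 (SE 0.63) for Ccl12 with all mice, and 0.02, 0.09 and -0.44 without it (limma adjusted p with all mice 0.772, 0.758 and 0.921). Cx3cl1, a membrane-bound ligand for patrolling monocytes and NK cells made by endothelium and epithelium, lay between 11.54 and 11.90 in wild-type mice and between 11.24 and 11.89 in transgenic mice (difference -0.11, 95% interval -0.50 to 0.29).

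Ccl2 alone was read by 10 spots of 1 accession, which may be repeats of 1 probe. Transgenic mouse 4 read 8.90 to 9.73 on the 10 spots, and the values of the other 7 mice lay between 5.73 and 7.31. In wild-type mice the SD between spots of 1 array, a technical spread, was 0.27 on average.

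**Figure D2:**
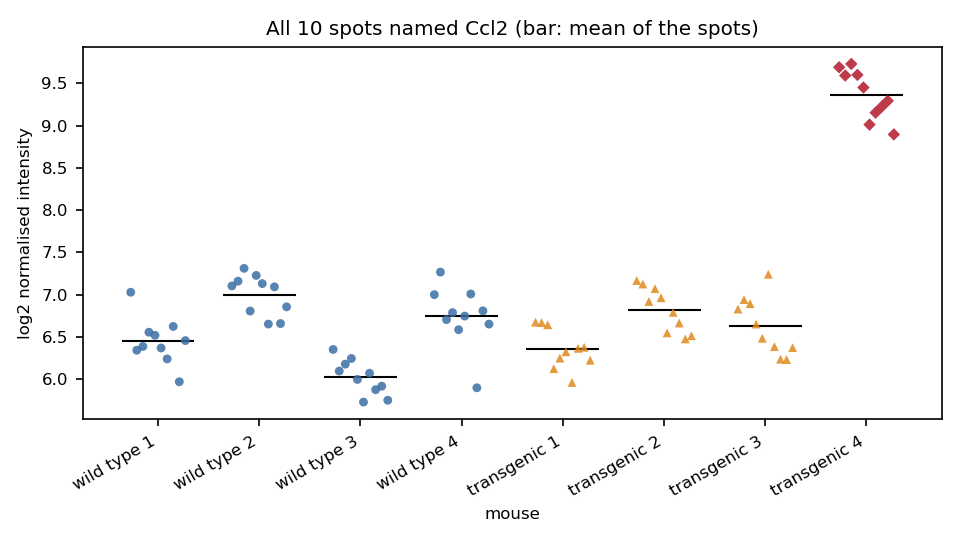
All 10 spots named Ccl2 in each mouse (x axis), as log2 normalised intensity, with a bar at the mean of the spots. The spots of transgenic mouse 4 lie at 8.90 to 9.73, above every spot of the other mice, which lie at 5.73 to 7.31.

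Ligands of eosinophils and T helper 2 cells gave the widest range. Ccl8, which in mice acts on the T helper 2 receptor Ccr8, was at 7.23, 7.63, 6.85 and 7.67 in wild-type mice and at 8.18, 9.06, 8.56 and 13.96 in transgenic mice. Each transgenic mouse exceeded each wild-type mouse, and mouse 4 stood 4.89 above the next highest. The difference was 2.59 (SE 1.17, limma adjusted p = 0.562) with all mice and 1.25 (SE 0.28, limma adjusted p = 0.222) without mouse 4, so the size depends on that mouse. Ccl11, the eotaxin that acts through Ccr3, was at 6.06, 6.11, 6.78 and 6.23 in wild-type mice and at 7.20, 6.88, 6.94 and 9.39 in transgenic mice. Again the groups did not overlap, with mouse 4 highest (difference 1.31, SE 0.54, limma adjusted p = 0.518; 0.71 without mouse 4, adjusted p = 0.357).

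Ccl24, another eotaxin, was at 5.06, 5.57, 5.08 and 4.55 in wild-type mice and at 5.50, 5.69, 6.02 and 10.06 in transgenic mice. Transgenic mouse 1 lay within the wild-type range, mice 2 and 3 just above it, and mouse 4 stood 4.05 above the next highest (difference 1.75, SE 0.95, limma adjusted p = 0.635; 0.67 without mouse 4, adjusted p = 0.523). Ccl17, which calls T helper 2 and regulatory T cells through Ccr4, was at 9.13, 10.15, 9.13 and 10.76 in wild-type mice and at 8.08, 8.87, 7.96 and 11.77 in transgenic mice. Transgenic mice 1 to 3 lay below all wild-type mice while mouse 4 lay above all of them, so the mean difference of -0.62 (SE 0.84) describes neither, and it was -1.49 (SE 0.46, limma adjusted p = 0.403) without mouse 4. Ccl22, the other Ccr4 ligand, and Ccl1 and Ccl26 were under the floor in both group means. Markers of eosinophils and mast cells had a mean log2 level of 4.86 to 5.52 in wild-type and 5.11 to 5.72 in transgenic mice, 0 of 8 passed the test, and both the eosinophil granule genes Epx and Prg2 had group means under the floor (3.48 and 3.51, 4.19 and 4.29). In the same list 5 differences were positive and 3 negative (median 0.06). Il5ra differed by 0.90, with transgenic mouse 4 at 7.20 and 1.28 above the next mouse. Ccr3, the eotaxin receptor, differed by 0.75, though mouse 4 had the lowest of the transgenic values (5.36). Cma1 (-0.65), Tpsb2 (-0.21) and Cpa3 (-0.02) had negative differences. Only Cma1 in this list had an unadjusted limma p under 0.05, where 9.15% of all genes did (3.82% lower). The genes named from this list were chosen after their values were seen, and the part of eosinophils and mast cells in the ligand levels was not tested.

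**Figure D3:**
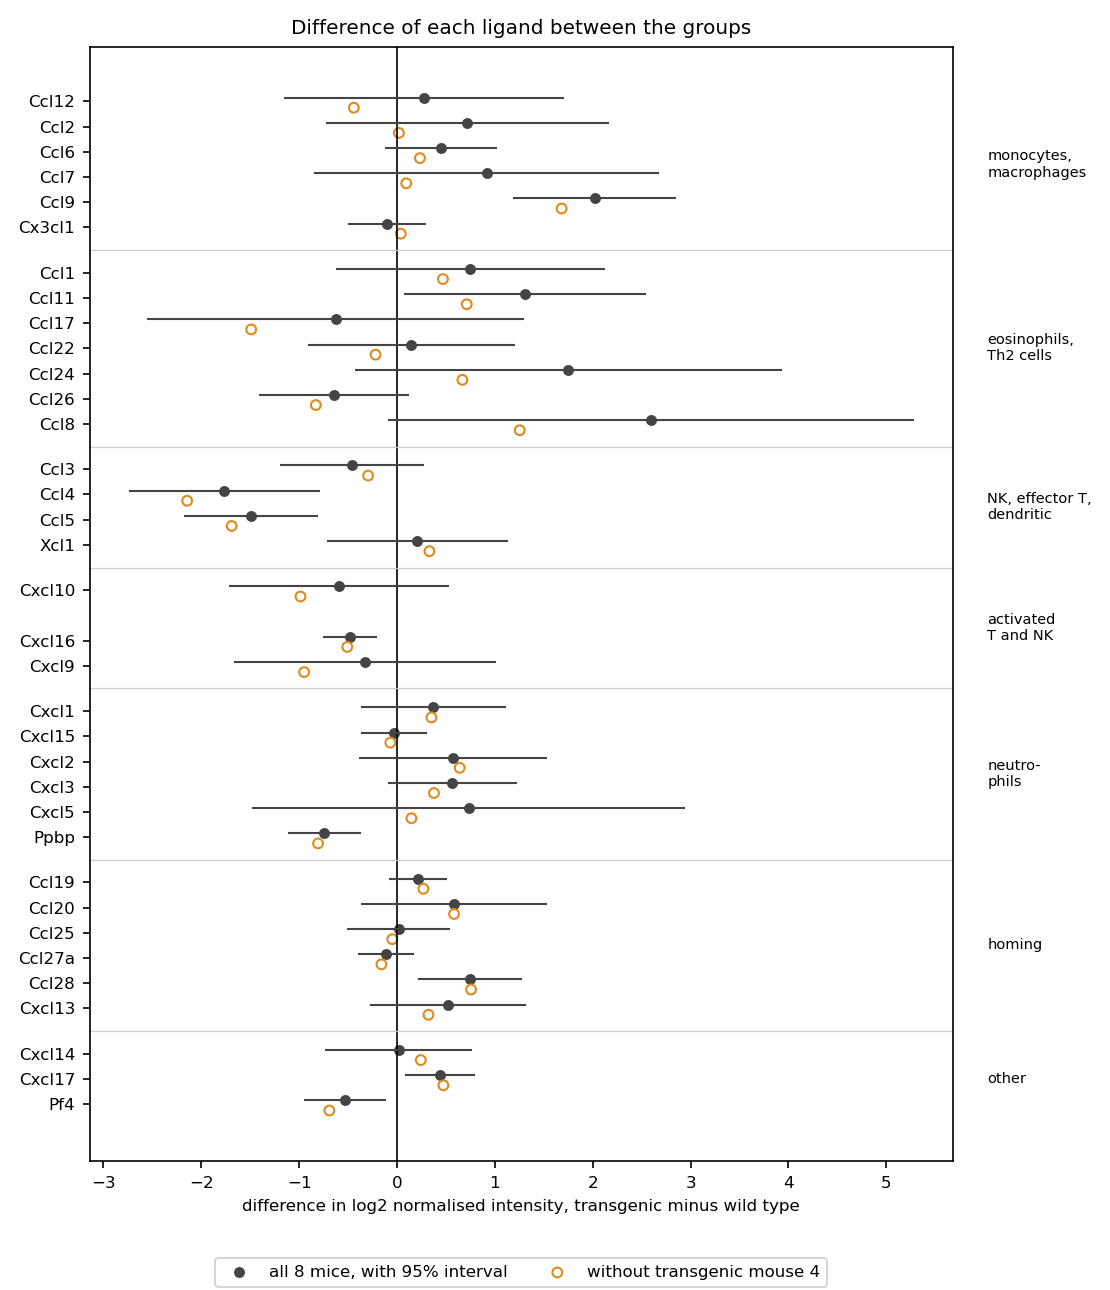
Difference in log2 normalised intensity, transgenic minus wild type, for 35 ligands (Cxcl11 is left out because its spot is at the top of the scale). Filled points show all 8 mice with the 95% interval of the limma fit, and open points show the difference without transgenic mouse 4. The 2 points lie far apart for Ccl8, Ccl24, Ccl17, Ccl2, Ccl7 and Ccl12 and close together for Ccl9, Ccl5, Cxcl16 and Ppbp.

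Ccl5 and Ccl4, which call effector T cells, macrophages and NK cells, lay lower in transgenic lung. Ccl5 was at 12.66, 13.30, 13.19 and 12.17 in wild-type mice and at 11.18, 11.03, 11.19 and 11.93 in transgenic mice. Every transgenic value was below every wild-type value, and mouse 4 came closest (2.81-fold lower, difference -1.49, SE 0.30, limma adjusted p = 0.152; -1.69 and 0.106 without mouse 4). It passed the threshold only with the variance that follows the level (adjusted p = 0.0377). Ccl4 was at 7.65, 7.25, 8.04 and 8.36 in wild-type mice and at 5.84, 5.18, 6.02 and 7.21 in transgenic mice. The groups did not overlap, though transgenic mouse 4 and wild-type mouse 2 almost met (3.39-fold lower, difference -1.76, SE 0.43, limma adjusted p = 0.228). Ccl3, which lies next to Ccl4, overlapped between the groups (6.95 to 7.45 in wild type and 6.18 to 7.64 in transgenic mice, difference -0.46, SE 0.32). Xcl1, made by NK and T cells to call cross-presenting dendritic cells, lay between 4.52 and 5.82 and between 4.72 and 6.23 (difference 0.21, 95% interval -0.72 to 1.13).

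Ccl3, Ccl4, Ccl5 and Xcl1 are products of NK and T cells. NK cell markers averaged 7.64 to 8.33 (log2) per wild-type mouse and 5.97 to 6.41 per transgenic mouse. All 10 had negative differences (median -1.55), and 3 passed the test over all genes, where 0.216% of all genes did (0.0911% lower). Of these, Gzma differed by -3.97, and Ncr1 and Klre1, whose transgenic means were under the floor, were at least 2.77-fold and 6.37-fold lower, measured against that floor. Ncr1 and Klrk1 were under the floor in all 4 transgenic mice and Klre1 in 3 of 4. T cell markers went the other way, with a mean level of 7.51 to 8.24 in wild-type and 8.69 to 9.31 in transgenic mice and positive differences in 8 of 8, of which 0 passed over all genes and 7 had an unadjusted limma p under 0.05, as did 9.15% of all genes (5.33% higher). The part of either cell type in the lower Ccl5 and Ccl4 levels was not tested.

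Of the interferon-induced ligands of Cxcr3, Cxcl10 was at 6.37, 7.42, 5.51 and 6.58 in wild-type mice and at 5.45, 5.30, 5.71 and 7.06 in transgenic mice, with overlap (difference -0.59, SE 0.49). Cxcl9 was at 5.72, 5.19, 4.64 and 5.49 in wild-type mice and at 3.99, 4.44, 4.50 and 6.79 in transgenic mice. Transgenic mice 1 to 3 and wild-type mouse 3 were under the floor, and mouse 4 was the highest of all 8 (difference -0.33, SE 0.58; -0.95 without mouse 4, limma adjusted p = 0.366). On the second Cxcl9 spot transgenic mice 1 to 3 (4.53 to 4.68) overlapped with wild type (4.50 to 4.87), and the difference over all mice was 0.18. The brighter Cxcl11 spot was at the top of the scale, 15.92 to 16 in all mice, so it gives no difference, and the dimmer spot lay at 9.9996 to 10.33 in wild-type and 9.07 to 10.19 in transgenic mice. RefSeq lists Cxcl11 of C57BL/6J as a transcribed pseudogene. Cxcl16, a membrane-bound ligand of Cxcr6 on activated T and NK cells, was at 10.64, 10.49, 10.52 and 10.29 in wild-type mice and at 10.004, 10.04, 9.88 and 10.08 in transgenic mice. The groups did not overlap and mouse 4 sat with the other transgenic mice (1.40-fold lower, difference -0.48, SE 0.12, limma adjusted p = 0.242).

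Neutrophil ligands showed no separation apart from Ppbp. Cxcl1 lay between 4.68 and 6.17 in wild-type and 5.45 and 6.18 in transgenic mice (difference 0.37, 95% interval -0.37 to 1.11). Cxcl5, which lung epithelium makes under stimulation, spread from 3.13 to 7.32 and from 4.23 to 7.74 (difference 0.73, 95% interval -1.48 to 2.94), the widest spread among wild-type mice of any ligand. Cxcl2 and Cxcl3 were under the floor in both group means. Cxcl15, called lungkine and made by lung epithelium, was at 13.48, 13.85, 13.64 and 13.93 in wild-type mice and at 13.85, 13.52, 13.61 and 13.81 in transgenic mice. These values overlapped closely (difference -0.03, 95% interval -0.37 to 0.31).

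Ppbp and Pf4 are stored in the granules of platelets and megakaryocytes. Ppbp was at 10.24, 10.11, 10.02 and 9.94 in wild-type mice and at 9.17, 9.03, 9.61 and 9.53 in transgenic mice. No values overlapped (1.67-fold lower, difference -0.74, SE 0.16, limma adjusted p = 0.193). Pf4 was at 11.74, 11.85, 12.09 and 11.89 and at 11.12, 11.13, 11.36 and 11.85. Transgenic mouse 4 alone reached the wild-type range (difference -0.53, SE 0.18, limma adjusted p = 0.438; -0.69 and 0.159 without mouse 4). Platelet markers had a mean log2 level of 7.23 to 7.50 in wild-type and 6.57 to 7.08 in transgenic mice, with negative differences in 9 of 10. None passed over all genes and 3 had an unadjusted limma p under 0.05, Gp9 (-1.02), Treml1 (-0.62) and Gp6 (-0.53), against 9.15% of all genes (3.82% lower). Whether the platelet content of the lungs set the Ppbp and Pf4 levels was not tested.

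Ligands that place lymphocytes and dendritic cells in tissue had positive differences in 5 of 6, where 52.4% of all genes did, with a median of 0.37. This count and median include Ccl20 and Ccl28, both positive and under the floor in all 8 mice, and Ccl25, with a difference of 0.02. Ccl27a, the Ccr10 ligand, was at 9.11, 9.22, 9.26 and 8.98 in wild-type mice and at 8.95, 8.89, 9.11 and 9.18 in transgenic mice, so the groups overlapped (difference -0.11, SE 0.12), and of its 3 spots the differences ran from -0.26 to 0.06. Ccl19, a Ccr7 ligand, differed by 0.22 (95% interval -0.08 to 0.52), Ccl25, the Ccr9 ligand, by 0.02 (-0.51 to 0.54), and Cxcl13, which draws B cells through Cxcr5, by 0.52 (-0.28 to 1.32). Cxcl13 has the widest of these intervals. Ccl20, the Ccr6 ligand (difference 0.58), was under the floor in all 8 mice. Ccl28, the other Ccr10 ligand, separated the groups (3.96, 3.53, 3.39 and 2.79 against 4.10, 4.11, 4.31 and 4.14, difference 0.75, SE 0.23, limma adjusted p = 0.365), but all 8 values were under the floor, which gives them no order.

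Cxcl17, a ligand of mucosal epithelium, was at 11.23, 11.41, 10.95 and 11.35 in wild-type mice and at 11.96, 11.47, 11.70 and 11.57 in transgenic mice. The lowest transgenic value, 11.47, was just over the highest wild-type value, 11.41 (1.36-fold higher, difference 0.44, SE 0.16, limma adjusted p = 0.463). Cxcl14, an epithelial ligand with a less settled receptor, was at 13.34, 13.11, 12.84 and 12.10 in wild-type mice and at 12.91, 13.40, 12.96 and 12.20 in transgenic mice. Both mice numbered 4 had the lowest Cxcl14 level of their group, and the groups overlapped (difference 0.02, 95% interval -0.73 to 0.77).

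Transgenic mouse 4 stood above all 7 other mice by at least 1 log2 unit in 9 of 36 ligands, 25%, against 0.887% of all genes, a limit chosen after the values were seen. The 9 were Ccl8 (4.89 above the next mouse), Ccl24 (4.05), Ccl7 (2.68), Ccl2 (2.52), Ccl12 (2.21), Ccl11 (2.19), Ccl9 (1.21), Cxcl9 (1.08) and Ccl17 (1.01). Counted another way, by Dixon's test within the transgenic group, mouse 4 was highest and apart in Ccl2, Ccl8, Ccl11, Ccl12, Ccl24 and Cxcl13, or 6 of 36 against 2.27% of all genes. Neutrophil ligands, the group of Ccl3, Ccl4, Ccl5 and Xcl1, homing ligands and platelet ligands were not among the 9. By Dixon's test the same held, apart from the homing ligand Cxcl13. The mean log2 level over all 36 ligands was 8.84 in this mouse and 7.70 to 7.86 in the other 7. Without it 14 ligands did not overlap between the groups, 5 higher and 9 lower, or 38.9% against 10.5% of all genes (6.16% higher and 4.36% lower), and 16 had an unadjusted limma p under 0.05 (6 higher, 10 lower) against 8.62% of all genes (4.65% higher and 3.97% lower). The 5 ligands added on the lower side were Ccl12, Ccl17, Ccl26, Cxcl9 and Pf4, of which Ccl26 was under the floor in all 8 mice and Cxcl9 in transgenic mice 1 to 3. Still 0 of 36 passed the adjusted test, where 0.182% of all genes did. This mouse was singled out because it stood apart in many ligands. The shares without it therefore rest on a choice made from the ligand values themselves.

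Genes next to each other in the RefSeq annotation (GRCm38.p6) were compared along chromosome 11. Ccl2, Ccl7, Ccl11, Ccl12, Ccl8 and Ccl1 lie in this order with 1 other annotated gene among them, and the first 5 of these were among the 9 that stood high in transgenic mouse 4, while Ccl1 was under the floor. A second run on the same chromosome holds Ccl5, Ccl9, Ccl6, Ccl3 and Ccl4. There the members went in different directions: Ccl9 was higher in all transgenic mice, Ccl5 and Ccl4 were lower, and Ccl6 and Ccl3 overlapped. Ppbp and Pf4, both with negative differences, are neighbours on chromosome 5 between Cxcl5 and Cxcl3, and Ccl24 lies there next to Ccl26.

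**Figure D4:**
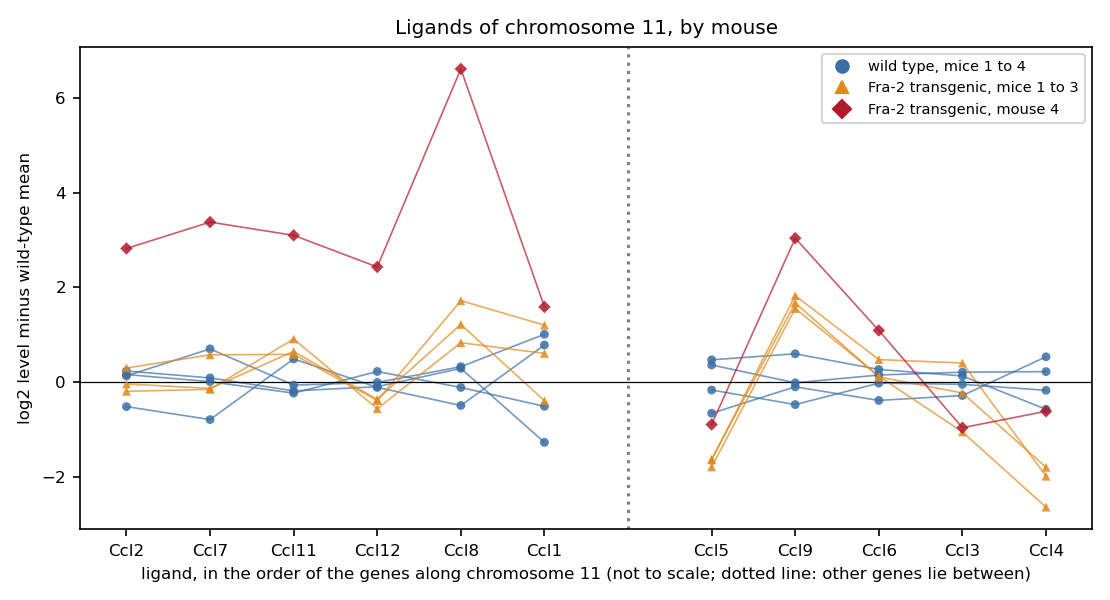
Log2 level of 11 ligands minus the wild-type mean (y axis), in the order of the genes along chromosome 11, with 1 line per mouse. In the first run transgenic mouse 4 lies far above the other mice from Ccl2 to Ccl8, and in the second run all 4 transgenic mice lie above wild type at Ccl9 and below it at Ccl5 and Ccl4.

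Marker lists in transgenic mouse 4 are given beside these values. B cell markers had a mean log2 level of 9.58 in this mouse against 7.30 to 9.08 in the other 7, T cell markers 9.31 against 7.51 to 8.78, neutrophil markers 11.48 against 9.80 to 11.30 and red cell markers 12.44 against 10.66 to 11.86. Dendritic cell markers stood at 8.41 against 7.80 to 8.20, eosinophil and mast cell markers at 5.72 against 4.86 to 5.70, and thymus and lymph node markers at 5.89 against 5.26 to 5.95. Among neutrophil markers the granule gene Camp was 3.71 and Ngp 2.53 above the next mouse, examples chosen after their values were seen, while S100a8, S100a9, Retnlg, Csf3r and Mmp9 were not above it. Of the 3 red cell markers measured, Slc4a1 was 1.78 above the next mouse. Alas2 was not above it, and Hba-a1 lay near the top of the scale in all mice. Monocyte and macrophage markers (9.38) and alveolar macrophage markers (11.76) lay within the range of the other 7 mice (8.08 to 9.43 and 11.25 to 12.12). The part of these cells in the ligand levels was not tested.

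**Figure D5:**
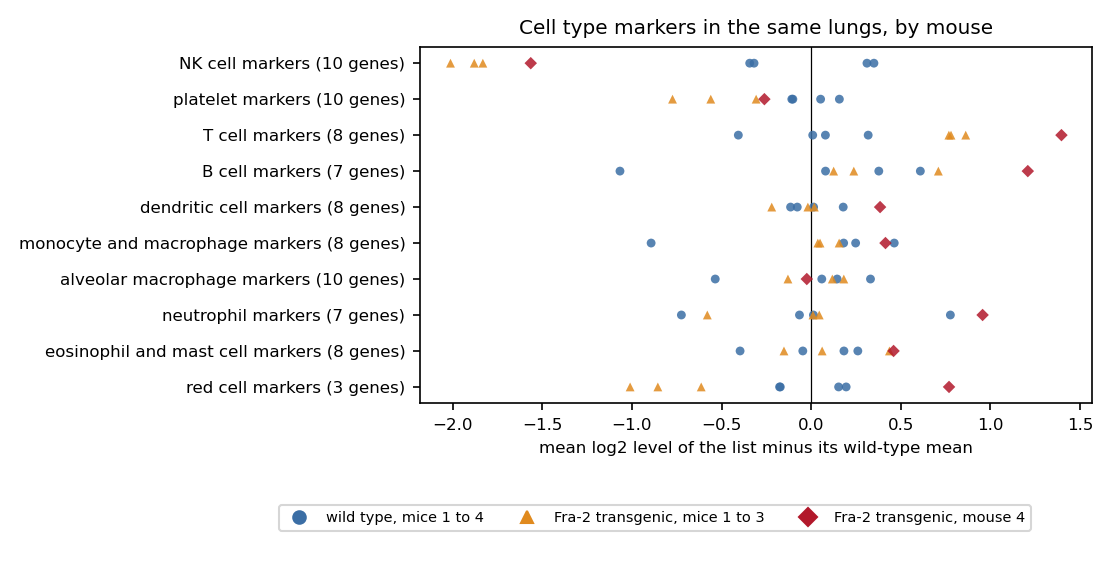
Mean log2 level of each cell type marker list minus its wild-type mean, 1 point per mouse. NK cell and platelet markers lie lower and T cell markers higher in all 4 transgenic mice than in any wild-type mouse, and transgenic mouse 4 lies to the right of the other 7 mice for T cell, B cell, dendritic cell, neutrophil and red cell markers, and by a small margin for eosinophil and mast cell markers.

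Receptors complete the pathway. Of 22 chemokine receptors measured, 0 passed over all genes. An unadjusted limma p under 0.05 was seen in 5, of which 4 were higher and 1 lower, against 9.15% of all genes (5.33% higher and 3.82% lower), and the median difference was -0.02. Ackr3, an atypical receptor that takes up Cxcl12 and Cxcl11, was at 10.49, 10.55, 9.86 and 10.19 in wild-type mice and at 11.48, 11.23, 11.50 and 12.25 in transgenic mice. Its groups did not overlap (difference 1.34, SE 0.25, limma adjusted p = 0.136), and it passed with an offset of 32 (0.0492) and with the variance that follows the level (0.0208). Ackr4, which takes up Ccl19 and Ccl25, was at 6.03, 6.01, 5.73 and 5.33 in wild-type mice and at 7.01, 7.11, 7.07 and 5.89 in transgenic mice, so mouse 4 was the one that overlapped (difference 1.00, SE 0.30, limma adjusted p = 0.357; 1.29 without mouse 4).

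Ccr7, the receptor of Ccl19 on T cells and dendritic cells, was at 11.18, 11.50, 11.25 and 10.05 in wild-type mice and at 11.73, 11.58, 11.64 and 12.75 in transgenic mice, with no overlap (difference 0.93, SE 0.38, limma adjusted p = 0.511). Ccr2, the receptor of Ccl2, Ccl7 and Ccl12 on monocytes, was at 7.97, 8.63, 7.98 and 8.40 and at 8.80, 8.78, 8.58 and 8.92, with overlap by 1 mouse of each group (difference 0.52, SE 0.18, limma adjusted p = 0.430). Cxcr1, a neutrophil receptor, was at 6.92, 7.08, 7.34 and 6.01 and at 4.83, 5.33, 6.12 and 6.54, with overlap (difference -1.13, SE 0.42, limma adjusted p = 0.472). The next receptors were chosen after their values were seen, as partners of ligands described above. Ccr1, through which Ccl9 and Ccl6 act, had group means of 3.74 and 3.71, under the floor, as were those of Xcr1, Ccr4 and Ccr10. Ccr8, on which Ccl8 acts, had means of 4.78 in wild-type and 4.20 in transgenic mice, with the transgenic mean under the floor. Transgenic mouse 4 was above all 7 other mice by at least 1 in Ccr7, Cxcr5 and Ackr1 of the 22 receptors, against 0.887% of all genes. For Ackr1 the margin was 1.02, and 1 wild-type and 2 transgenic values were under the floor. Ccr3 differed by 0.75 (SE 0.54), Cxcr6, the receptor of Cxcl16, by 0.15 (SE 0.36), and Cxcr3 by -0.14 (SE 0.23).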

How the data were processed

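The authors deposited linear normalised intensity values of 62976 spots for 8 arrays. All arrays share 1 distribution, as quantile normalization gives. Their normalization and background steps are not given in any source used. R 2.15.1 and limma 3.14.4 are named per the submitters' processing notes. The labels give Cy5 as the single dye.

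Spots were named by the platform annotation (31465 with 1 symbol), with symbols updated through RefSeq accessions (29050 matched, 2933 replaced). The brightest spot stood for each of 20863 genes. Log2 intensities, with no offset, were fitted with limma 3.58.1 in R 4.3.3 (lmFit, eBayes) with group alone in the model. P-values were adjusted by Benjamini-Hochberg over all genes, and the fit was tested on simulated data. Figures were drawn with matplotlib 3.10.9. Promoters came from RefSeq.

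Every ligand found by its symbol was named. Those with an unadjusted p under 0.05, with no overlap between the groups, or with the brightest spot of their recruitment group have a value for each mouse. At most 8 receptors and 4 cytokines were named by the same limits. Ligands, lists and tests were chosen with earlier results of these data known. Ccl21a, Ccl21b, Ccl21c and Ccl27b were not analysed here. The floor of 4.74 is the median log2 of all spots. The gap of 1 was set after the values were seen. Each array is a different animal per the design text, and the number of mice limits the precision. Correlations between the deviations of same-numbered mice were small (r from -0.012 to 0.051), though 6 of 8 mice correlated best with their own number. Other offsets, filters, spot rules, names, scalings, variance models, a replicate block and left-out mice were tried.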

Additional observations from a re-analysis of the deposited data

Results flagged for a closer look

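Within each group of 4 mice, the highest or lowest value was set against the others by Dixon's test at its 95% limit. By chance about 5% of groups have such a value, and here 10 of 72 ligand and group combinations did. The combinations share the same mice and are not independent, and the share of all genes is given only for transgenic mouse 4. In 6 of these transgenic mouse 4 was the highest: Ccl8 at 13.96, Ccl24 at 10.06, Ccl2 at 9.69, Ccl11 at 9.39, Ccl12 at 8.74 and Cxcl13 at 7.15. Transgenic mouse 4 stood highest and apart in the same way in 2.27% of all genes. The next highest transgenic values were 9.06, 6.02, 7.17, 7.20, 5.95 and 6.37. For Cxcl13 this value lay close to the highest wild-type value of 6.86. Ccl2 in wild-type mouse 3 (6.35, nearest 7.0007) and Ccl26 in wild-type mouse 2 (3.21, nearest 3.50, under the floor) stood apart as lowest of their group. Cxcl11 stood apart as lowest in wild-type mouse 3 (15.99) and transgenic mouse 4 (15.92), where the other values are at the top of the scale.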

How the results depend on the processing

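Under 17 alternatives, 7 of the 35 ligand differences followed turned at least once. The count of ligands past the adjusted test was 0 except with an offset of 16 (1, Ccl9), an offset of 32 (1, Ccl9) and a variance that follows the level (2, Ccl9 and Ccl5). For receptors it was 0 except with an offset of 32 (1, Ackr3) and with that variance (1, Ackr3). With 1 mouse left out, ligands at an unadjusted p under 0.05 numbered 7 to 16 (lower ones 4 to 10) and those without overlap 9 to 14, each time highest without transgenic mouse 4. The median difference ran from 0.0664 (without transgenic mouse 4) to 0.44 (without transgenic mouse 2). Without both mice numbered 4, 8 ligands were lower at an unadjusted p under 0.05 and 14 did not overlap. Shares of all genes are given only with all mice and without transgenic mouse 4. Smaller groups separate more easily by chance, so the other counts are not compared with the main ones. With only genes above the floor the median was 0.0199. The mouse numbers in the labels do not settle whether same-numbered mice are paired. Of 8 mice, 6 correlated best with their own number, all weakly. With the replicate block 0 ligands were called and 8 were at an unadjusted p under 0.05. Differences that turned with a mouse left out were those of Ccl12 (-0.44 to 0.56), Ccl22 (-0.22 to 0.54), Ccl25 (-0.21 to 0.13), Cx3cl1 (-0.18 to 0.0384), Cxcl14 (-0.23 to 0.24), Cxcl15 (-0.11 to 0.0388) and Xcl1 (-0.12 to 0.47). Without both mice numbered 4 Ccl12 (-0.44), Ccl22 (-0.43), Cx3cl1 (0.0717) and Cxcl14 (-0.0051) turned, and Ccl25 (-0.26) with the mean of all spots, of which 1 of 3 was above the floor. The cause was not tested. Another scaling changed no value, since the arrays share 1 distribution. Signals under the floor limit Ccl1, Ccl20, Ccl22, Ccl26, Ccl28, Cxcl2 and Cxcl3.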

Other observations

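Cytokines that induce chemokines were listed beside the ligands. Of 16 measured 0 passed over all genes (limma), and 3 had an unadjusted p under 0.05 (1 higher and 2 lower, where 9.15% of all genes did). Csf2, which activates macrophages and dendritic cells, was at 6.997, 7.70, 7.32 and 6.71 in wild-type mice and at 8.37, 8.35, 8.12 and 7.85 in transgenic mice, with no overlap (difference 0.99, SE 0.23, limma adjusted p = 0.217). Ifng, the inducer of Cxcl9 and Cxcl10 made by NK and T cells, was at 5.69, 5.35, 5.53 and 4.96 and at 4.37, 4.82, 4.71 and 4.86, also with no overlap. Of the transgenic values 2 were under the floor, as was their mean, so Ifng was at least 1.51-fold lower (limma adjusted p = 0.304). Il1b overlapped (10.19 to 11.21 and 8.82 to 10.29, difference -1.01, SE 0.35, limma adjusted p = 0.433). Il6, chosen after its values were seen, reached 8.38 in transgenic mouse 4, while the rest lay between 4.84 and 5.51. Also chosen after their values were seen, the type 2 cytokines Il5 and Il13 had group means under the floor. Il4 had means of 5.11 and 5.45 (difference 0.33, SE 0.33), and Il33 differed by 0.18 (SE 0.29).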
